A study of Mus musculus with 6 samples.

Results

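Neurotrophic factors and their receptors were followed in mouse dental follicle cells as 6 genes, the ligands Bdnf, Ntf3 and Gdnf and the receptors Ngfr, Ntrk2 and Ntrk3, picked by gene symbol as factors of tooth innervation. All 6 were among the 17213 genes of the deposited count table, and all 6 were among the 14632 genes left by the filter on low counts. The cells came from the follicles of mandibular molars at postnatal day 8 and were sorted for tdTomato, which marks cells expressing PTHrP. There were 3 KO-labelled libraries, with genotype Pth1r(-/-), and 3 labelled Het, with genotype Pth1r(+/-). Both groups carried the conditional deletion on at least one allele and both received tamoxifen, so the Het libraries are not wild type. The tamoxifen pulse was given at postnatal day 3 per the series text and at day 8 per the sample descriptions. The labels name neither the Cre driver nor the animals behind each library, so p-values reflect the variation among these 6 samples alone, possibly technical. The question is how the transcriptome of these cells differs without Pth1r, the receptor of PTH and PTHrP.

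Neurotrophins are secreted proteins that keep sensory and sympathetic neurons alive and steer their axons. BDNF acts through the receptor tyrosine kinase TrkB, encoded by Ntrk2, and NT-3, encoded by Ntf3, through TrkC, encoded by Ntrk3. The p75 receptor encoded by Ngfr binds all neurotrophins and is also used to isolate neural crest-derived stem cells, among them cells of the dental follicle. GDNF binds GFRA1 and signals through the kinase RET, and its relative neurturin, encoded by Nrtn, prefers GFRA2. In rodent molars these factors are made by mesenchyme around and inside the tooth while trigeminal axons grow in.

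On the mm10 genome, with positions from GENCODE M21, Bdnf lies on chromosome 2 from 109674700 to 109727007 on the plus strand, Ntf3 on chromosome 6 from 126101412 to 126166910 on the minus strand, and Gdnf on chromosome 15 from 7810846 to 7837575 on the plus strand. Ngfr lies on chromosome 11 from 95568818 to 95587735 on the minus strand, Ntrk2 on chromosome 13 from 58806569 to 59133970 on the plus strand, and Ntrk3 on chromosome 7 from 78175959 to 78738012 on the minus strand. Annotated antisense transcripts overlap Bdnf, Ntrk2 and Ntrk3, and the strand setting of the counting is not given in the sources used here. Others overlap on the same strand, C630044B11Rik in Ntrk2 and Gm44607 and Gm39038 in Ntrk3. Reads of all these partners cannot be told apart here from reads of the genes. Counts per gene also do not separate the full-length from the truncated forms of TrkB and TrkC.

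Pth1r signals through cAMP, and the cAMP response element is an 8-base motif that CREB binds. The RefSeq promoter table for GRCm38.p6 held 13 windows for 5 of the 6 genes, each from 250 bases before to 50 bases after an annotated start, and none for Ntrk3. The windows shown are the upstream start of Ntf3, the one of the 6 genes whose groups did not overlap, and the 2 windows that held the first 5 bases of the element. Capitals mark TGACG on either strand, which reads CGTCA where it lies on the strand opposite to the gene. The Ntf3 window is chr6:126166695-126166994, minus strand, the Bdnf window chr2:109692186-109692485, plus strand, and the Gdnf window chr15:7809798-7810097, plus strand.
Ntf3: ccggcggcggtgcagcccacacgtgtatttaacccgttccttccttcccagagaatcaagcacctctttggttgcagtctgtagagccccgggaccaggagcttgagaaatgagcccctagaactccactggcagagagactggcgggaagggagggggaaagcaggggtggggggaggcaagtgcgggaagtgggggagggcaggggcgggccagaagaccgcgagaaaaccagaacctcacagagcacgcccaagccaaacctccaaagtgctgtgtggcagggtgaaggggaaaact
Bdnf: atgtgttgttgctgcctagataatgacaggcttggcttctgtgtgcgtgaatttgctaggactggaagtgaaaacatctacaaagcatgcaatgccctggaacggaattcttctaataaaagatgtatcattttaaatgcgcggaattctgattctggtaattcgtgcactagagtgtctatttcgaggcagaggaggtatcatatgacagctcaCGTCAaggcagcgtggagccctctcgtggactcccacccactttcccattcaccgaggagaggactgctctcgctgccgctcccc
Gdnf: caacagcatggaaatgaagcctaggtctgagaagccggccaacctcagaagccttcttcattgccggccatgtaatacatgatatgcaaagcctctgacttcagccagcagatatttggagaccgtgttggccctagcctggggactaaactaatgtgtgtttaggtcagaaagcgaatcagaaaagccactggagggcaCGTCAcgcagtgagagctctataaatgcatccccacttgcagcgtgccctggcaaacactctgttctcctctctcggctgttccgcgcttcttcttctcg
The full element TGACGTCA was in 0 of the 13 windows, against 1.79% of all 32851 windows in the table. The 5-base part TGACG, which the full element contains, was in 2 of the 13 (15.4%), against 20.8% of all windows. A match is a description of letters, not of binding.

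The targeted gene was examined first. Pth1r was at 961, 608 and 472 CPM (counts scaled per library size after TMM normalization) in KO-labelled libraries, against 371, 286 and 346 CPM in Het-labelled ones. The groups did not overlap, and KO-labelled libraries were the higher ones. Its log2 fold change was 1.02 (SE 0.28) with a 95% interval of 0.40 to 1.65. The adjusted p was 0.740 in edgeR and 0.0564 in DESeq2. Counts over the whole gene cannot tell transcripts with the deleted part from those lacking it. The level, though higher in KO-labelled libraries, thus cannot check the label, and all directions are those of the libraries as labelled. Pthlh, the gene of PTHrP, was at 317 ± 28.5 CPM in KO-labelled libraries and 289 ± 47.4 CPM in Het-labelled ones (SD, n = 3 each).

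Total counts ran from 51804736 to 66147200 in KO-labelled libraries and from 34019925 to 63787622 in Het-labelled ones. Het replicate 2 was set off from the remaining 5 libraries by the first principal component of log2 CPM, which held 38.6% of the variance. Xist was at 0.230 CPM in KO replicate 1 and 0.145 CPM in Het replicate 0, and between 23.7 and 78.4 CPM in the remaining 4 libraries, so both groups were mixed for this gene of the inactive X chromosome. Summed over 4 Y-linked genes, levels were 55.1 to 170 CPM in KO-labelled libraries and 72.8 to 124 CPM in Het-labelled ones. The 4 libraries with Xist thus also held Y-linked RNA. All 8 follicle markers were detected in every library, 5 with higher and 3 with lower fitted values. The highest were the type I collagen gene Col1a1, at 21244 to 41011 CPM in KO-labelled libraries and 9738 to 28041 CPM in Het-labelled ones, and the Wnt inhibitor gene Wif1, at 2624 to 3234 CPM and 1952 to 3667 CPM. In edgeR's quasi-likelihood fit 0 of 14632 genes (0%) reached an adjusted p of 0.05, an unadjusted p under 0.05 was found for 628 (4.29%; 2.58% higher and 1.71% lower), and the groups did not overlap for 1562 (10.7%). DESeq2 called 87 genes, 0.509% of those it tested.

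The 6 genes were expressed at low to moderate levels, and their order was read from FPKM, a deposited unit that divides fragments by transcript length and depth. Ntrk2 was the highest in all 6 libraries, at 10.2 ± 1.51 FPKM (SD over the 6 libraries), and lay above 55.8% of the genes tested, whose median was 7.79 FPKM. Ntf3 followed at 5.54 ± 3.04 FPKM, Ngfr at 3.74 ± 0.472, Ntrk3 at 2.40 ± 1.23, Bdnf at 2.40 ± 0.401 and Gdnf at 0.853 ± 0.296 FPKM. Gdnf was the lowest in all 6 libraries and lay above 15.9% of the genes tested. The places of Ntf3 and Ngfr were not separated by their spread: Ntf3 was above Ngfr in 4 of 6 libraries, all 3 labelled Het among them, and below it in KO replicates 1 and 2. Ntrk3 and Bdnf were not separated either, with Ntrk3 the higher in 2 of 6 libraries, KO replicate 1 and Het replicate 2. In KO replicate 2 and Het replicate 2, Bdnf had more CPM per FPKM than in the other libraries, and Ngfr had fewer. The FPKM means, spreads and places of these genes carry that limit.

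**Figure D1:**
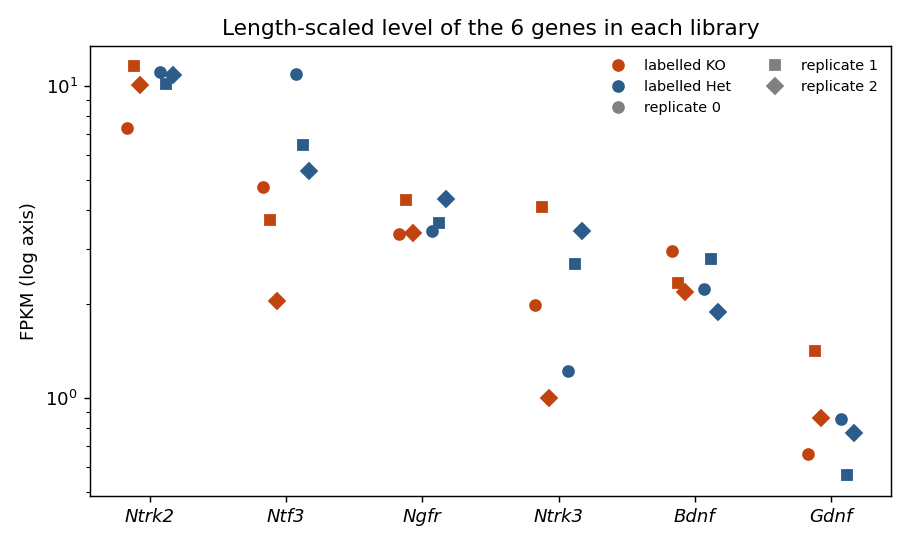
Deposited FPKM (log axis) of the 6 genes in each library, ordered by mean, with KO-labelled libraries in orange left of Het-labelled ones in blue and a symbol for each replicate number. Ntrk2 is highest and Gdnf lowest in every library, and Ntf3 spreads from 2.05 to 10.9 FPKM.

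Among the ligands, the neurotrophin gene Ntf3 was lower in KO-labelled libraries, but the difference did not pass the test over all genes. Ntf3 had 354, 268 and 159 counts in KO-labelled libraries, which is 5.81, 4.40 and 3.03 CPM, against 822, 264 and 282 counts, or 13.2, 7.35 and 7.92 CPM, in Het-labelled ones. Every KO-labelled library lay below every Het-labelled library, and Het replicate 0 stood highest. Lower values without overlap were found for 4.83% of all genes tested. The means were 4.41 ± 1.39 CPM in KO-labelled libraries and 9.50 ± 3.24 CPM in Het-labelled ones (SD, n = 3 each). Fitted by edgeR, the log2 fold change was -1.11 (SE 0.43) with a 95% interval of -2.09 to -0.12, with an unadjusted p of 0.0318 and an adjusted p of 0.976. The adjusted p was 0.580 in DESeq2. The log2 fold change kept its sign in all 18 alternatives and was -0.80 without Het replicate 0. In deposited FPKM, Ntf3 was at 4.73, 3.71 and 2.05 in KO-labelled libraries and at 10.9, 6.48 and 5.33 in Het-labelled ones, again without overlap. In bulk RNA, fewer cells of a type and less RNA per cell cannot be told apart.

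Bdnf, the gene of the ligand of TrkB, was at 11.5, 8.72 and 14.6 CPM in KO-labelled libraries, against 8.80, 10.2 and 12.3 CPM in Het-labelled ones. The groups overlapped throughout, with KO replicate 2 highest and KO replicate 1 lowest. On the log2 scale the fold change was 0.15 with a 95% interval of -0.59 to 0.89 and an edgeR adjusted p of 0.981, and it was -0.043 without KO replicate 2. The interval reaches both lower and higher levels, so it does not show that the groups were alike. Set against each other within a library, Bdnf was at 0.626, 0.627 and 1.07 times the FPKM of Ntf3 in KO-labelled libraries and at 0.204, 0.429 and 0.354 times in Het-labelled ones. The ratio was higher in every KO-labelled library. It was chosen after the values were seen and has no test of its own. Bdnf had 6.67 CPM per FPKM in KO replicate 2 and 6.53 in Het replicate 2, against 3.67 to 3.94 in the remaining 4 libraries, so its FPKM was lower relative to its counts in both replicates numbered 2. Nrtn was shifted the other way.

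Gdnf, the ligand that signals through GFRA1 and RET, was at 2.36, 5.13 and 3.65 CPM in KO-labelled libraries, from 144, 312 and 192 counts. It was at 3.02, 2.03 and 3.23 CPM in Het-labelled ones, from 188, 73 and 115 counts. KO replicates 1 and 2 were above all Het-labelled libraries, while KO replicate 0 lay among them. The log2 fold change was 0.43 with a 95% interval of -0.91 to 1.76 and an edgeR adjusted p of 0.981. This was the widest of the 3 ligand intervals. The value was 0.12 without KO replicate 1, 0.25 without Het replicate 1 and 0.69 without KO replicate 0.

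**Figure D2:**
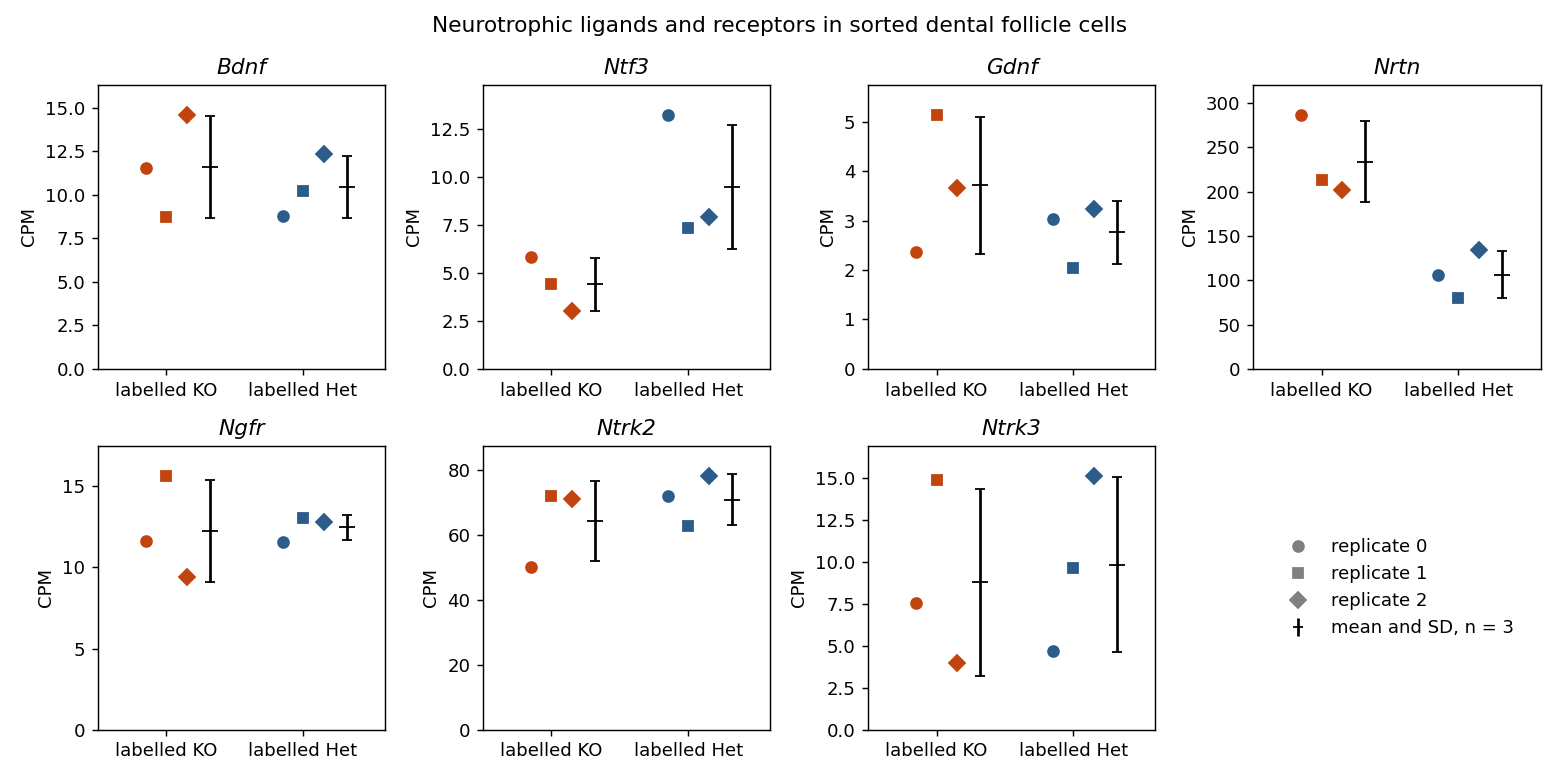
CPM of the 6 genes and of Nrtn, a gene of the wider list, in each library, with KO-labelled libraries left of Het-labelled ones, a symbol for each replicate number and the mean with SD (n = 3) beside the points. The groups do not overlap for Ntf3, at 3.03 to 5.81 CPM in KO-labelled libraries, nor for Nrtn, at 202 to 286 CPM in those libraries.

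Among the receptors, the groups overlapped for all 3 genes. Ntrk2, the gene of TrkB, was at 50.1, 72.1 and 71.0 CPM in KO-labelled libraries, against 71.9, 62.7 and 78.2 CPM in Het-labelled ones. KO replicate 0 was the lowest of all, and the other 2 KO-labelled libraries lay within the range of Het-labelled ones. Its log2 fold change was -0.14 with a 95% interval of -0.62 to 0.34 and an edgeR adjusted p of 0.981, the narrowest interval of the 6 genes. Without KO replicate 0 it was 0.030.

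Ngfr, the gene of the p75 receptor, was at 11.6, 15.6 and 9.44 CPM in KO-labelled libraries, against 11.6, 13.0 and 12.8 CPM in Het-labelled ones. KO-labelled libraries held both the highest and the lowest value. Fitted by edgeR, the log2 fold change was -0.03 with a 95% interval of -0.71 to 0.66 and an adjusted p of 0.9996. It was 0.03 without KO replicate 0, 0.13 without KO replicate 2 and 0.0042 without Het replicate 1.

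Ntrk3, the gene of TrkC, the receptor of NT-3, was at 7.53, 14.9 and 3.96 CPM in KO-labelled libraries, against 4.68, 9.66 and 15.1 CPM in Het-labelled ones. Both groups spread widely, and the highest values, in KO replicate 1 and Het replicate 2, belonged to different groups. On the log2 scale the fold change was -0.16 with a 95% interval of -1.45 to 1.13 and an edgeR adjusted p of 0.990. It was 0.19 without KO replicate 2 and 0.30 without Het replicate 2. The order of the libraries for Ntrk3 was not that for Ntf3, its ligand, which was highest in Het replicate 0, where Ntrk3 was the second lowest.

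Of the 6 genes, 0 passed edgeR over all genes, as did 0% of all genes tested. An unadjusted edgeR p under 0.05 was found for 1 of them (Ntf3, lower), beside 4.29% of all genes, and 0 passed in DESeq2, beside 0.509%. Fitted values were higher for 2 and lower for 4, with a median log2 fold change of -0.08, beside -0.01 over all genes tested.

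A wider list of 48 genes of the same signalling systems was set beside them, of which 45 were in the count table and 39 passed the filter on low counts. Fitted values were higher in KO-labelled libraries for 25 and lower for 14, with a median log2 fold change of 0.10. With edgeR 0 passed over all genes and 5 (12.8%) had an unadjusted p under 0.05, 4 higher and 1 lower, beside 4.29% of all genes tested, 2.58% higher and 1.71% lower. The groups did not overlap for 8 of the 39 (20.5%), 6 higher and 2 lower, beside 10.7% of all genes tested. The list was chosen with earlier results of these data known, so these shares are a description only.

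Of the 8 GDNF family genes tested, 3 had higher and 5 lower fitted values. Nrtn, the gene of neurturin, was at 286, 213 and 202 CPM in KO-labelled libraries, against 106, 80.1 and 134 CPM in Het-labelled ones. Every KO-labelled library lay above every Het-labelled library. Higher values without overlap were found for 5.84% of all genes tested. The log2 fold change was 1.13 (SE 0.24), the adjusted p was 0.634 in edgeR and 0.00592 in DESeq2, and Nrtn was the only gene of the list that DESeq2 called. Its log2 fold change lay between 0.97 and 1.35 in all 18 alternatives. In FPKM, Nrtn was 440, 358 and 732 in KO-labelled libraries, and Gdnf was at 0.662, 1.41 and 0.862 in them. In Het-labelled libraries, Nrtn was 167, 140 and 413 FPKM, and Gdnf was 0.853, 0.564 and 0.768 FPKM. On this scale the Nrtn groups overlapped between Het replicate 2 and KO replicate 1, but Nrtn had 0.324 CPM per FPKM in Het replicate 2 and 0.596 in KO replicate 1, so FPKM is not comparable between them. Nrtn was far above Gdnf in every library.

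The other GDNF family genes named here overlapped between the groups. Artn, the gene of artemin, was at 11.7 ± 4.75 CPM in KO-labelled libraries and 6.84 ± 3.20 CPM in Het-labelled ones, with overlap (SD, n = 3 each). The coreceptor gene Gfra4 was at 21.2 ± 3.05 CPM and 20.3 ± 3.01 CPM in the same order. Chosen after their values were seen are the partners of the 2 ligands. Gfra1 was at 7.43 ± 1.22 CPM in KO-labelled libraries and 9.54 ± 2.06 CPM in Het-labelled ones, and Gfra2 at 9.69 ± 4.98 and 12.1 ± 4.32 CPM. Ret, the shared kinase, had 37, 1 and 0 counts in KO-labelled libraries and 17, 37 and 119 counts in Het-labelled ones, so its level was close to the floor of 3 counts in 2 libraries.

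Of the 7 neurotrophin-system genes tested, 5 had higher and 2 lower fitted values. Sorcs2, a sortilin-related receptor that binds proneurotrophins together with p75, was at 26.0, 15.6 and 12.5 CPM in KO-labelled libraries, against 3.88, 5.32 and 11.5 CPM in Het-labelled ones. The groups did not overlap, by a narrow margin between KO replicate 2 and Het replicate 2. Its log2 fold change was 1.39 (SE 0.47), and the adjusted p was 0.976 in edgeR and 0.369 in DESeq2. Without Het replicate 2 the DESeq2 adjusted p was 0.00119 and the log2 fold change 1.97, a setting chosen after seeing the data. Sorl1, a sorting receptor of the same family whose FPKM overlapped between the groups, was at 18.0 ± 4.87 CPM in KO-labelled libraries and 10.6 ± 2.58 CPM in Het-labelled ones, and Sort1, which encodes sortilin, at 56.8 ± 10.7 and 55.5 ± 1.42 CPM. Sorcs1 differed the other way, at 3.73 ± 2.26 and 9.01 ± 3.93 CPM without overlap. It was named for this after its values were seen.

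Among 7 tested genes that process or protect the precursors, 6 had higher and 1 lower fitted values. Furin, a convertase that cleaves proneurotrophins inside the cell, was at 233, 185 and 160 CPM in KO-labelled libraries. It was at 165, 139 and 53.0 CPM in Het-labelled ones, with overlap. Its FPKM did not overlap, at 42.2 to 53.7 in KO-labelled libraries and 13.9 to 38.8 in Het-labelled ones. Pcsk6, another convertase, was at 210 ± 98.5 and 110 ± 61.7 CPM in the same order of labels. Both were lowest in Het replicate 2, the library that stood apart, and without it their log2 fold changes of 0.70 and 0.93 became 0.35 and 0.54. That of Pcsk6 was 0.53 without KO replicate 0. Serpini1, the gene of neuroserpin, an inhibitor of tissue plasminogen activator, had 1019, 501 and 692 counts in KO-labelled libraries and 188, 196 and 7 counts in Het-labelled ones. The groups did not overlap. Serpini1 had a log2 fold change of 2.13 (SE 0.88) and an edgeR adjusted p of 0.976, and the value was 1.58 without Het replicate 2. Plat, the gene of tissue plasminogen activator itself, was at 41.4 ± 6.26 CPM in KO-labelled libraries and 51.6 ± 1.66 CPM in Het-labelled ones without overlap, and is named because of that.

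Of 12 receptor adaptors and partners of p75, 10 had higher and 2 lower fitted values. The most abundant were Maged1, a p75-binding adaptor, at 1546 ± 117 CPM in KO-labelled libraries and 1396 ± 204 CPM in Het-labelled ones, and Ngfrap1, a p75-associated protein also called Bex3, at 156 ± 24.5 and 199 ± 26.2 CPM. Traf6, an adaptor of p75 signalling, was at 24.1 ± 6.54 and 17.8 ± 1.10 CPM without overlap, though its FPKM overlapped. On the log2 scale Traf6 differed by 0.44, and by 0.19 with KO replicate 1 left out. Of 5 other neurotrophic ligands, 1 had a higher and 4 a lower fitted value. Mdk, the gene of midkine, was at 468, 377 and 540 CPM in KO-labelled libraries and at 492, 556 and 1200 CPM in Het-labelled ones, with Het replicate 2 far above the rest. Its log2 fold change of -0.70 became -0.18 without that library. Ptn, which encodes pleiotrophin, was at 514 ± 180 and 545 ± 129 CPM, and Manf, a neurotrophic factor of the endoplasmic reticulum, at 165 ± 42.2 and 218 ± 76.8 CPM; without Het replicate 2 the log2 fold change of Manf, -0.40, became -0.08.

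**Figure D3:**
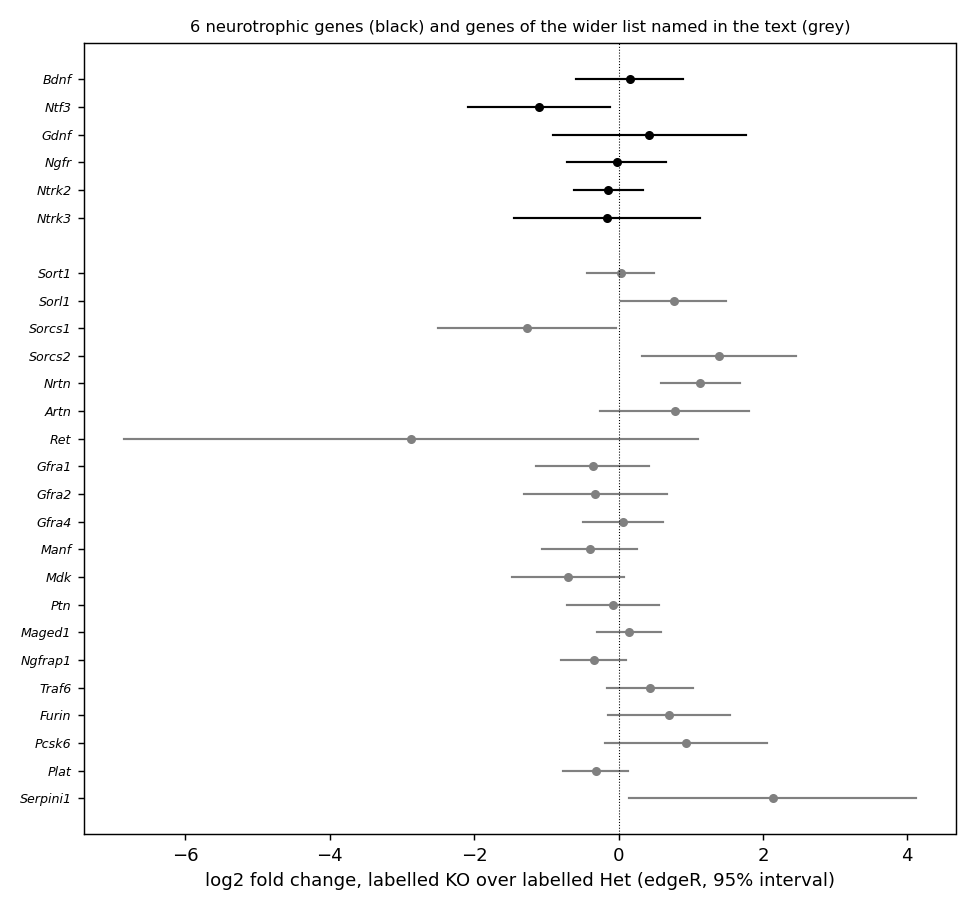
Log2 fold change of KO-labelled libraries over Het-labelled ones from edgeR, as points with 95% intervals that are not adjusted for the number of genes, for the 6 genes (black) and the genes of the wider list named in the text, apart from Gfra3 (grey). The interval of Ntf3 lies below 0, while those of Bdnf, Gdnf, Ngfr, Ntrk2 and Ntrk3 include 0. Among the grey genes, the intervals of Nrtn, Sorcs2, Sorl1 and Serpini1 lie above 0, that of Sorcs1 lies below 0, and the others include 0.

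Neurotrophin receptors are also made by nerve and Schwann cells, so markers of other cells were measured in the same libraries. Of 10 Schwann cell markers, 9 were in the count table and 7 were tested, 3 with higher and 4 with lower fitted values. Their summed level was 205 to 276 CPM in KO-labelled libraries and 322 to 444 CPM in Het-labelled ones. Most of it was Pmp22, at 184 to 239 CPM and 276 to 409 CPM in the same order, and without Pmp22 the sums were 21.0 to 49.4 CPM and 31.2 to 46.0 CPM, which overlapped. The defining factor Sox10 had 0 counts in all libraries but Het replicate 2, which had 2 counts, and Foxd3 had 9, 0 and 38 counts in KO-labelled libraries and 0 in all labelled Het. A count of 0 allows up to 3 counts. Erbb3 was at 0.772 to 1.45 CPM in KO-labelled libraries and 0.643 to 1.17 CPM in Het-labelled ones, and Mbp at 9.03 to 17.8 CPM and 4.52 to 11.2 CPM. S100b was at 4.86 to 15.5 CPM and 11.7 to 18.2 CPM, and Gfra3 at 1.91 to 10.6 CPM and 1.17 to 14.9 CPM. Sox10 was thus at or near 0 where Ngfr was at 9.44 to 15.6 CPM.

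Neuronal markers summed to 86.4 to 99.8 CPM in KO-labelled libraries and 42.7 to 112 CPM in Het-labelled ones, and of 8 tested, 4 had higher and 4 lower fitted values. Tubb3, the highest, was at 58.1 to 69.7 CPM and 5.70 to 79.3 CPM in the same order, and Uchl1 averaged 8.45 ± 1.02 CPM and 16.9 ± 5.17 CPM (SD, n = 3 each), lower in every KO-labelled library than in any Het-labelled one. Stmn2 was at 16.2, 11.8 and 13.9 CPM in KO-labelled libraries and at 5.60, 3.42 and 4.47 CPM in Het-labelled ones, without overlap and with an adjusted p of 0.634 in edgeR and 0.00229 in DESeq2. Snap25 was at 0.115 to 0.628 CPM in KO-labelled libraries and 0.478 to 2.20 CPM in Het-labelled ones, Tac1 at 3.23 to 6.03 CPM and 2.38 to 16.4 CPM, and Elavl4 at 1.14 to 1.86 CPM and 0 to 1.67 CPM. Nefl, Nefm, Prph and Isl1 had 0 counts in at least 1 library each. The part of these markers in the levels of the 6 genes was not tested.

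The lists whose sums lay lower in every KO-labelled library were the Schwann list above and those of pericytes and of endothelium. The summed level of 6 pericyte and smooth muscle markers was 787 to 965 CPM in KO-labelled libraries and 1081 to 1147 CPM in Het-labelled ones. It was led by Acta2 and Tagln (DESeq2 adjusted p of 0.00886 for Tagln, lower in KO-labelled libraries), and no marker was at 0. The list was split, with 3 higher and 3 lower fitted values. Log2 fold changes were 0.43 for Rgs5, 0.85 for Cspg4 and 0.67 for Pdgfrb. They were -0.50 for Acta2, -0.94 for Tagln and -0.24 for Kcnj8. Without Acta2 the sums were 262 to 421 CPM and 333 to 404 CPM, which overlapped. The 6 endothelial markers summed to 5.61 to 8.07 CPM and 10.0 to 19.4 CPM, led by Kdr and Pecam1, with 2 higher and 4 lower fitted values and Tek, Tie1 and Emcn at 0 in at least 1 library. Without Kdr the sums were 1.48 to 3.78 CPM and 3.86 to 13.2 CPM, still without overlap. The part of these lists in the level of Ntf3 was not tested. Dental epithelium markers, led by the enamel matrix genes Ambn and Amelx, were abundant in both groups, at 5079 to 10580 CPM in KO-labelled libraries and 5412 to 8243 CPM in Het-labelled ones. Odontoblast and pulp markers, led by Smoc2 and Dmp1, summed to 538 to 929 CPM and 546 to 804 CPM, and macrophage and leukocyte markers, led by Csf1r and C1qb, to 6.62 to 41.1 CPM and 4.31 to 18.5 CPM, with overlap in each of these sums. Of the 7 macrophage and leukocyte markers, 7 had higher and 0 lower fitted values. Within the odontoblast list, the leading genes stood in opposite directions without overlap. Dmp1, which encodes a matrix protein of dentin and bone, was at 536, 248 and 138 CPM in KO-labelled libraries, against 72.4, 29.0 and 84.8 CPM in Het-labelled ones, with an adjusted p of 0.634 in edgeR and 0.00146 in DESeq2. Smoc2 was at 309 to 361 CPM in KO-labelled libraries and 410 to 650 CPM in Het-labelled ones. Without Smoc2 the list summed to 191 to 620 CPM in KO-labelled libraries and 105 to 159 CPM in Het-labelled ones, which did not overlap. Most of that sum in KO-labelled libraries was Dmp1 alone. Of the 6 odontoblast and pulp markers, 2 had higher and 4 lower fitted values. Dspp, another of them, was at 17.4 ± 0.652 CPM in KO-labelled libraries and 18.8 ± 7.67 CPM in Het-labelled ones, with overlap (SD, n = 3 each). The part of these genes in the levels of the 6 was not tested.

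**Figure D4:**
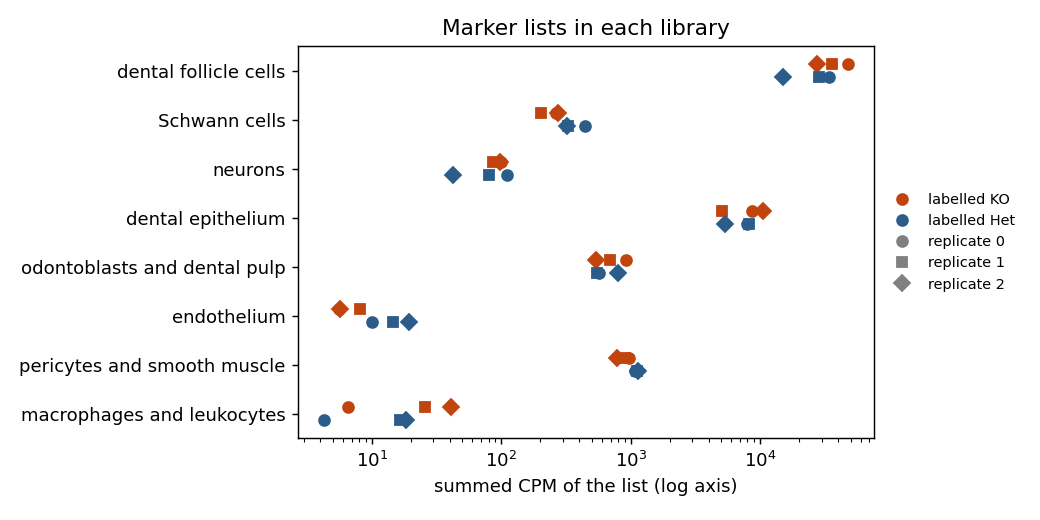
Summed CPM (log axis) of each marker list in each library, with KO-labelled libraries in orange above Het-labelled ones in blue and a symbol for each replicate number. The Schwann, endothelial and pericyte sums lie lower in every KO-labelled library, and the neuronal sum is lowest in Het replicate 2, at 42.7 CPM.

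The genes whose pattern over the 6 libraries was most like each of the 6 were found among 10603 genes by the root mean square difference of centred log2 CPM, as a description. Ntf3 was nearest to Plekhb1 and Layn, with differences of 0.21 and 0.23 on the log2 scale, where the median over all candidates was 0.73. Plekhb1 was at 5.91, 5.13 and 3.67 CPM in KO-labelled libraries and at 14.3, 5.62 and 8.06 CPM in Het-labelled ones. It shared the high value of Het replicate 0. Ntrk3 was nearest to Pcdhgc4 and Spg11 (0.21 and 0.22, median 0.81), Gdnf to Zfp558 and Klrg2 (0.11 each, median 0.54), and Bdnf to Calcoco1 and Rnaseh2b (0.04 and 0.08, median 0.41). Ngfr was nearest to Glce and Huwe1 (0.03 and 0.04, median 0.39) and Ntrk2 to Chordc1 and Ralgapb (0.06 each, median 0.38). Pcdhgc4 belongs to a cluster of genes that share exons, so its count is uncertain.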

How the data were processed

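RNA was measured in 6 libraries of sorted follicle cells; per the labels' protocols, PicoPure RNA went into SMART-Seq v4 cDNA and Nextera XT libraries. No molecular identifiers are named, and floors therefore cover counting error alone. The submitters' processing notes list the build mm10 and HTSeq, Cufflinks, Cuffdiff, DESeq2, Bowtie2 2.2.1, TopHat2 2.0.13 and FastQC without roles, and the annotation is not given in these sources. The tested table holds whole-number counts per gene as deposited. Estimated counts for 23107 symbols were also deposited and were rounded here, and 92.3% of shared values equal the counts within 1e-09. The deposited FPKM values were used for levels between genes. Other deposited tables were not used here.

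Counts were tested in R 4.3.3 with edgeR 4.0.16 (quasi-likelihood, TMM, default filter), two-sided, with Benjamini-Hochberg adjustment over all genes and a threshold of 0.05. Standard errors came from the F statistic. CPM are TMM-scaled and given with SD. Groups and replicate numbers came from sample titles. All pairs of libraries differed beyond sampling noise (lowest chi-square over its degrees of freedom, 93.8). Alternatives used DESeq2 1.42.0, limma 3.58.1, RLE factors, other filters, the estimated counts, log2(FPKM + 1) and log2(FPKM + 0.1), a replicate block and each library left out. The code was tested on simulated data. The 6 genes and all lists were chosen with earlier results of these data known. From each class of the wider list, the 2 genes with the smallest p and the 2 with the highest mean FPKM were named, from each marker list the 2 with the highest CPM, and the Schwann and neuronal markers; some genes that this rule names are not reported here. Likeness used log2 CPM with a prior count of 2 and genes averaging 2 or more log2 CPM, without predicted genes, ribosomal protein genes and the 6 themselves.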

Additional observations from a re-analysis of the deposited data

How the results depend on the processing

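The count of the 6 genes past the threshold was 0 in all 18 alternatives, with leave-one-out values of 0 to 0. Over all genes the count was 0 with RLE factors, both other filters, the estimated counts and the block, 0 to 1 when a library was left out (1 without Het replicate 0), 1 in limma-voom, 1 in each of the 4 FPKM fits, 87 in DESeq2 and 175 in DESeq2 without Het replicate 2, a setting chosen after seeing the data. For the wider list it was 0 to 0 when a library was left out, 1 in DESeq2 (Nrtn) and 2 in DESeq2 without Het replicate 2 (Nrtn and Sorcs2), and 0 in the others. The cause of the gap between edgeR and DESeq2 was not tested.

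Of the single-gene values of 25 genes under alternatives, 428 kept sign and call, 4 newly passed and 16 changed sign. When a library was left out the log2 fold change ran from -0.043 to 0.32 for Bdnf, -0.24 to 0.13 for Ngfr, -0.23 to 0.030 for Ntrk2, -0.77 to 0.30 for Ntrk3, -0.050 to 0.18 for Sort1, -0.042 to 0.18 for Gfra4 and -0.41 to 0.12 for Ptn. That of Ntrk3 was 0.11 in limma-voom and 0.30 in DESeq2 without Het replicate 2. Newly passing were Nrtn in DESeq2 (1.13) and, without Het replicate 2, Nrtn (1.33), Sorcs2 (1.97) and Pth1r (1.05). On the log2(FPKM + 1) scale, which understates low genes, Ntf3 was at -0.93.

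With the replicate number as a block, edgeR called 0 genes, and 0 of the 6, with -1.10 for Ntf3 (adjusted p = 0.797). Deviations from the group means correlated at 0.17, 0.07 and 0.07 between libraries of the same number, across genes; each library correlated best with its own number, a hint from the data and not from the design. Gdnf had no value in the filtered FPKM fits. On the log2 scale the SE was 0.59 for Gdnf, with 73 to 312 counts, and 1.76 for Ret, with 0 to 119 counts. That of Ntrk3, with 208 to 905 counts, was 0.57. The part of low counts in these errors was not tested.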

Other observations

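The deposited FPKM and the CPM of the same gene did not scale alike in all libraries. For Bdnf there were 3.89, 3.75 and 6.67 CPM per FPKM in the libraries labelled KO, replicates 0, 1 and 2, and 3.94, 3.67 and 6.53 in those labelled Het. The value in both replicates numbered 2 was thus above the other 4. Nrtn went the other way, at 0.651, 0.596 and 0.276 CPM per FPKM in the libraries labelled KO and 0.632, 0.572 and 0.324 in those labelled Het. So did Ngfr, less strongly, at 3.48, 3.62 and 2.79 in the libraries labelled KO and 3.39, 3.59 and 2.94 in those labelled Het. Ntf3 was at 1.23, 1.19 and 1.48 and at 1.21, 1.13 and 1.49 in the same order. Over 11081 genes the median log2 deviation from a gene's own mean was -0.05, -0.02 and 0.07 in the libraries labelled KO and -0.07, -0.03 and 0.08 in those labelled Het. The length that the FPKM was divided by is not given in the sources used here. FPKM levels of Bdnf, Ngfr and Nrtn in replicates numbered 2 therefore should not be set against those of the other libraries without this ratio. The pattern was seen after the data were examined and was not tested.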
